A study of Mus musculus with 25 samples.

Results

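The cortex of mice given (-)-Vestitol alone was compared with that of untreated mice of the same amyloid model, using 10 of the 25 sequenced samples: 5 vestitol libraries and 5 model control libraries, taken by their labels. Both groups were male B6C3 mice with the genotype APPswe, PSEN1dE9, aged 6 months, and both received an intraperitoneal injection once a day for 3 months, of vehicle in the controls and of (-)-Vestitol at 5 mg/kg in the treated mice. The remaining groups, also male, aged 6 months and of 5 mice each, were model mice given Salviolone at 5 mg/kg, model mice given both compounds at 2.5 mg/kg each, and C57BL/6J wild type mice on vehicle, which differ from the model mice in strain as well as in genotype. The design text asks how each treatment changed expression against the control group, with the sequenced mice drawn at random from larger groups, so each library is taken as 1 mouse. The sources used here give neither the time of day of tissue collection nor a processing batch.

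Vestitol is an isoflavan made by leguminous plants. The model mice carry a chimeric mouse and human amyloid precursor protein with the Swedish mutation, driven by the mouse prion protein promoter, and they deposit amyloid in the cortex. Several genes described here follow the circadian clock, in which CLOCK and BMAL1 bind E-box sequences and drive the Per, Cry and Nr1d genes, whose products repress them in turn, and in which DBP, TEF and HLF act on further genes through D-box sequences. Others are induced by glucocorticoid hormone, whose blood level also follows the day, and a further set is encoded on the mitochondrial genome, which specifies core subunits of respiratory complexes I, III, IV and V while the nucleus encodes the rest.

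Sequenced depth was 77772965 to 93132986 counts per model control library and 65336993 to 78331946 per vestitol library, and a count of 0 allows a level of up to 3 counts, which was 0.0323 to 0.0460 CPM (counts relative to the normalised library size). That limit covers counting error only, and it takes each count as 1 read. Among counts from 4 to 39, 44.3% were multiples of 4 (25% by chance). If reads were counted more than once, the limit is higher. The transgene check did not separate the groups: App, where mouse and human reads are counted together, was at 4262 ± 354 CPM (SD, n = 5) in the controls, 4071 ± 311 with vestitol and 1672 in wild type, and Prnp, whose promoter sequence the transgene carries, was at 1856 ± 146, 1748 ± 153 and 652. Markers of tissue next to the cortex were uneven. The mean log2 CPM over 15 choroid plexus genes was 3.09 and 1.74 in control mice 4 and 5, between -0.21 and 0.42 in the other 3 controls, and between -1.52 and -0.02 in the vestitol mice, and that over 14 hypothalamus and basal forebrain genes was 1.86 in control mouse 1 and at most 0.30 elsewhere in both groups. Fewer cells of a type and less RNA per cell cannot be told apart in these bulk samples.

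No gene passed the test between vestitol and the model control. Among 16515 genes tested, the quasi-likelihood test of edgeR called 0 (0%) at a Benjamini-Hochberg adjusted p under 0.05, and the smallest adjusted p was 0.251. At an unadjusted p under 0.05 there were 623 genes higher with vestitol (3.77%) and 626 lower (3.79%). The 5 vestitol mice lay above all 5 controls in 129 genes (0.781%) and below all of them in 139 (0.842%). DESeq2 called 39 genes on the same counts, 22 of the 24 genes with the smallest p (12 in each direction) among them, and limma-voom called 0. Without control mouse 1, edgeR called 2 genes, mt-Nd3 and mt-Co3. Fits that left out 1 mouse of either group, or control mice 4 and 5, had 3% to 4.23% of all genes higher and 3.14% to 4.63% lower at an unadjusted p under 0.05. The median change over all genes was -0.0019 on the log2 scale, the median size of a change 0.0937 and the median standard error 0.117, so a typical difference was smaller than its own error.

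**Figure D1:**
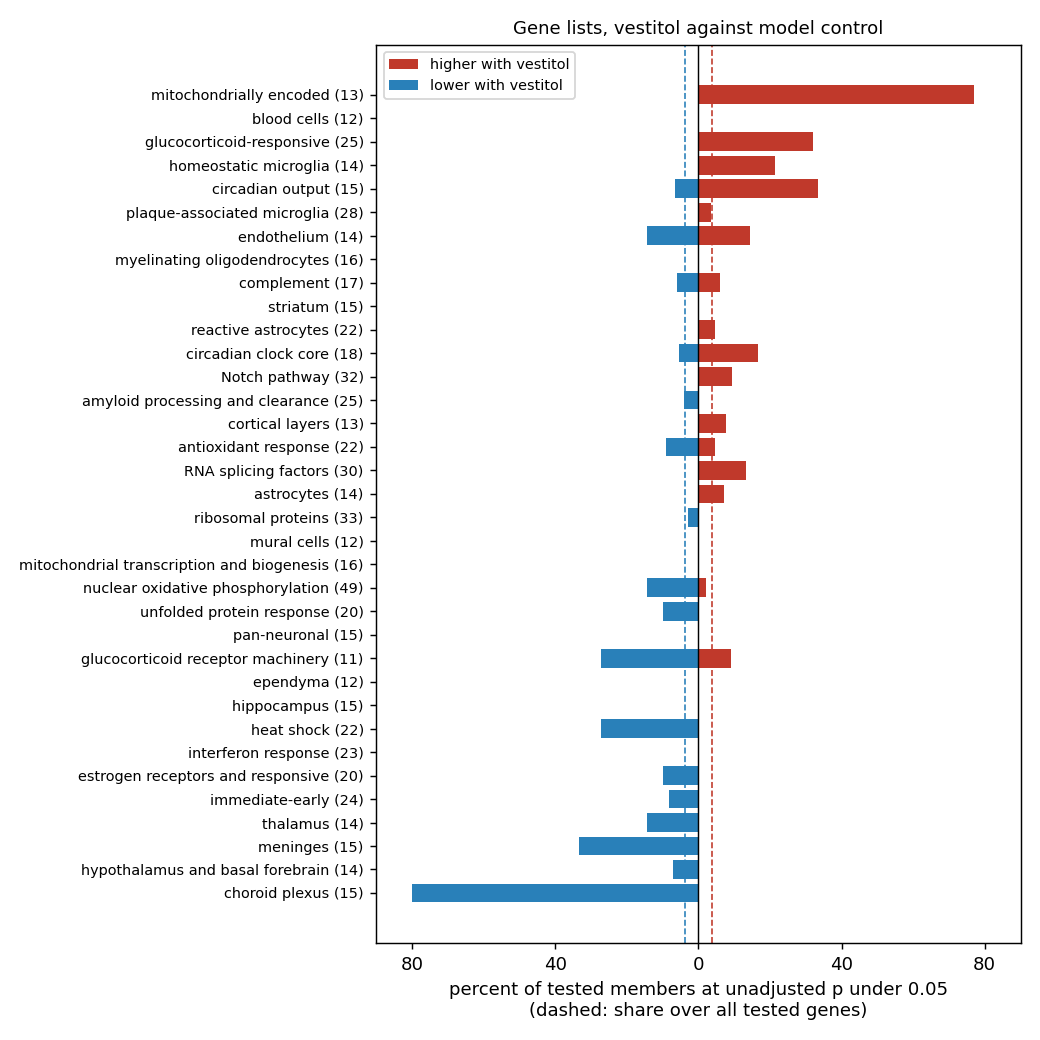
Share of tested members of each of 35 gene lists at an unadjusted p under 0.05, higher (red, to the right) or lower (blue, to the left) with vestitol than in the model control, in percent; the number of tested members is in brackets and lists are ordered by their median change. The dashed lines mark the shares over all 16515 genes, 3.77% and 3.79%; the mitochondrially encoded list reaches farthest to the right with 10 of 13 genes and the choroid plexus list farthest to the left with 12 of 15.

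The 12 genes with the smallest p on the higher side had adjusted p of 0.251 to 0.256 and changes of 0.17 to 0.55 on the log2 scale. Of these, 8 did not overlap between the groups (0.781% of all genes were higher without overlap). The 12 were selected by their p in this comparison, so little overlap follows from the selection. Usp2 (mm39, chromosome 9, 43978318 to 44006924), a deubiquitinating enzyme whose transcript cycles with the clock, had the smallest p of all genes. Its level was 83.2, 85.1, 81.2, 89.9 and 79.1 CPM in control mice 1 to 5 and 101.9, 107.8, 118.9, 106.9 and 92.6 CPM in vestitol mice 1 to 5. All 5 vestitol mice were above all 5 controls, with a log2 difference of 0.34 ± 0.07 (SE) and an unadjusted p of 2.58e-05. The wild type mean was 98.1 CPM. Over the alternative fits the adjusted p of Usp2 ran from 0.0154 with DESeq2 to 1 with a minimum change of 1.2-fold.

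Lfng (mm39, chromosome 5, 140593075 to 140601300), which encodes a glycosyltransferase that modifies Notch receptors, was at 15, 15.2, 15, 12.9 and 13.9 CPM in the controls. In the vestitol mice it was at 16.1, 19.4, 21.8, 18.6 and 19.6 CPM. The groups did not overlap, and vestitol mouse 1 was closest to the controls. The log2 difference was 0.41 ± 0.08 (SE), and the wild type mean was 18 CPM.

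Sf3b1, the large subunit of the splicing factor that recognises the intron branch point, was at 183 to 209 CPM in the controls and at 213 to 227 CPM with vestitol, again without overlap, with a log2 difference of 0.19 ± 0.04 (SE). Cirbp, an RNA-binding protein induced by mild cold and cycling with body temperature, was at 46.6, 36.5, 29.6, 38.6 and 35.8 CPM in the controls and at 45.3, 58.8, 65.0, 53.5 and 50.8 CPM with vestitol. Here vestitol mouse 1 was below control mouse 1, and the other vestitol mice were above every control. Other genes of this group were Ankrd12, Rnf103, a ubiquitin ligase of the endoplasmic reticulum, Eea1, an early endosome tether, Gli2, a transcription factor of Hedgehog signalling, Pabpc1, which binds poly(A) tails, and Ube3a, a ubiquitin ligase. Of these, Gli2 had the largest difference, 6.43 ± 0.37 CPM in the controls against 9.42 ± 2.10 with vestitol (SD, n = 5), and its highest vestitol value, 12.7 CPM, was in mouse 5.

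On the lower side the 12 genes with the smallest p had adjusted p of 0.251 to 0.268 and changes of -0.16 to -0.59. Of these, 9 did not overlap (0.842% of all genes were lower without overlap), which again follows from the selection by p. Alkbh1 (mm39, chromosome 12, 87472939 to 87490688), a demethylase of nucleic acids that acts on transfer RNA, was at 19.0, 20.6, 19.6, 20.3 and 19.6 CPM in the controls. Its vestitol values were 16.2, 15.8, 15.7, 13 and 15.4 CPM. The groups did not overlap, the controls lay close together, and vestitol mouse 4 was the lowest, for a log2 difference of -0.38 ± 0.08 (SE). Slc24a3, a sodium, calcium and potassium exchanger, was at 166, 172, 167, 146 and 148 CPM in the controls and at 122, 132, 122, 129 and 122 CPM with vestitol, also without overlap. Atp5l, an ATP synthase subunit, Uqcrh, a subunit of complex III, Cycs, cytochrome c, and Hint1, a nucleotide hydrolase, had log2 differences of -0.16, -0.17, -0.19 and -0.20, and only Cycs overlapped between the groups. The rest were Cib2, a calcium-binding protein, Magi3, a scaffold of cell junctions, Arpc5l, an actin-branching complex subunit, Dctn3, a dynactin subunit, Umps, an enzyme of pyrimidine synthesis, and Zfp551, a zinc finger protein that had the largest change, from 8.80 ± 0.77 to 5.84 ± 0.88 CPM (SD, n = 5).

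**Figure D2:**
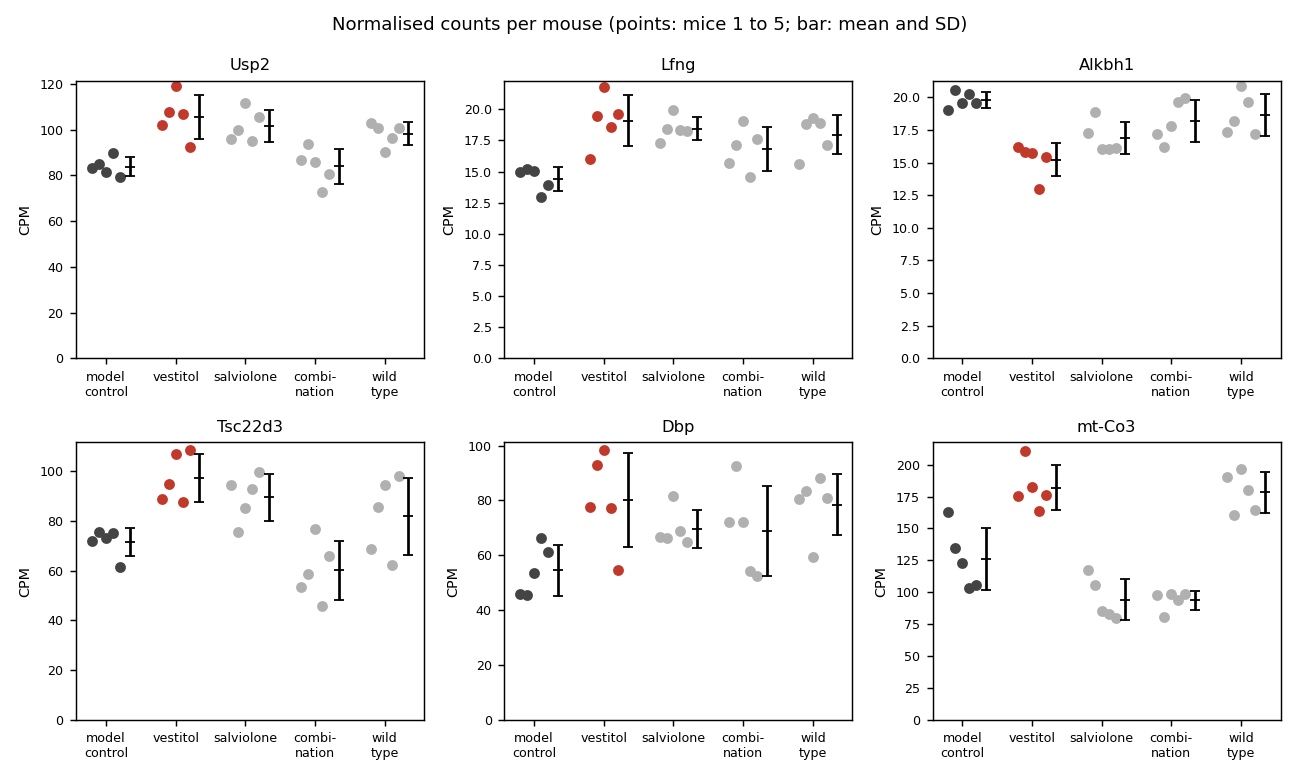
Normalised level (CPM, linear axes from 0) of 6 genes in each mouse of the 5 groups; points are mice 1 to 5 from left to right and the bar to their right is the mean with its SD. In Usp2, Lfng, Tsc22d3 and mt-Co3 every vestitol point (red) is above every model control point (black), in Alkbh1 every one is below, and in Dbp vestitol mouse 5 lies among the controls.

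The mitochondrially encoded genes were the list with the most members at a small p on the higher side. Of 13 genes, 10 had an unadjusted p under 0.05, all of them higher with vestitol, against 3.77% of all genes, and the other 3 also had positive values. The median log2 difference was 0.32, against -0.0019 over all genes. None passed the adjusted test. The 13 genes lie on 1 genome, so 10 of 13 is not a count of separate results. This list, like the others, was chosen with earlier results of these data known, and mt-Co3 is a marker of this comparison. The list counts are therefore descriptions and do not stand apart from that choice. Without control mouse 1 the adjusted test called mt-Nd3 and mt-Co3 (adjusted p 0.0250 and 0.0326), and without control mice 4 and 5 only 2 of 13 had an unadjusted p under 0.05 (3.09% of all genes were higher in that fit), with a median of 0.18.

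mt-Co3 (mm39, chromosome M, 8607 to 9390), a core subunit of complex IV, was at 162.8, 134.7, 123.2, 103.5 and 105.8 CPM in the controls. It was at 175.5, 210.8, 182.5, 163.7 and 176.5 CPM in the vestitol mice. The groups did not overlap, but control mouse 1 and vestitol mouse 4 differed by under 1 CPM. The log2 difference was 0.53 ± 0.11 (SE), and mt-Co3 was the 1 gene of the 13 without overlap. mt-Nd3, a subunit of complex I, was at 24.5, 19.0, 14.6, 15.6 and 15.4 CPM in the controls and at 22.6, 26.0, 24.7, 22.9 and 25.1 CPM with vestitol, where control mouse 1 lay among the treated mice. The complex I gene mt-Nd2 was at 198 to 305 CPM and at 287 to 391 CPM. The complex IV gene mt-Co1 had the smallest difference, 0.09 ± 0.13 (SE). Neighbouring and overlapping mitochondrial genes and nuclear copies can share reads, and the sources used here do not give the strand setting of the counting.

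Together the 13 genes took 0.561% to 0.816% of all counts in the controls and 0.755% to 0.829% in the vestitol mice. Control mice 1 and 2, at 0.816% and 0.745%, were the highest controls, and the controls were spread more widely than the treated mice. The share was 0.637% to 0.790% in wild type, 0.409% to 0.620% with salviolone and 0.475% to 0.604% with both compounds. The 2 controls with the most choroid plexus RNA, mice 4 and 5, had the lowest mitochondrial shares of the controls, 0.620% and 0.561%. Control mouse 3, with the lowest choroid plexus score of the controls (-0.21), was close to them at 0.642%. Salviolone mouse 1 had both the highest choroid plexus score (2.06) and the highest mitochondrial share (0.620%) of its group. With the choroid plexus score as a covariate, 9 of 13 genes had an unadjusted p under 0.05 and were higher with vestitol (2.91% of all genes in that fit).

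The compounds can be compared at an equal dose of 5 mg/kg without the model control. All 13 mitochondrially encoded genes were higher with vestitol than with salviolone, by 0.55 to 0.95 on the log2 scale with adjusted p of 0.000302 to 0.0488. Against the model control, salviolone values ran from -0.56 (mt-Atp8) to -0.24 (mt-Nd6), with a smallest adjusted p of 0.0712. For mt-Co1, vestitol was at 0.09 and salviolone at -0.48 against the model control, and for mt-Co3 at 0.53 and -0.42. The comparison of the compounds does not give which group moved, and the 13 genes of 1 genome are not separate results. For mt-Co3 vestitol differed from salviolone by 0.95, with a 95% interval of 0.71 to 1.19, from 181.8 ± 17.6 CPM against 94.2 ± 16.3 (SD, n = 5). Leaving out any 1 mouse of the 2 groups left 10 to 13 of the 13 called, and a minimum change of 1.2-fold left 9. In all, 113 genes were called in this comparison (0.684%), 98 of them higher with vestitol. Ube3a (0.42), Rnf103 (0.34) and Sf3b1 (0.20) were among them, and Usp2 and Lfng were not, with differences of 0.06 (95% interval -0.08 to 0.19) and 0.05 (-0.12 to 0.22). The count of 113 fell to 39, 35 and 40 without vestitol mouse 1, 2 or 4, to 14, 30 and 24 without salviolone mouse 3, 4 or 5, and was 204 without salviolone mouse 1.

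**Figure D3:**
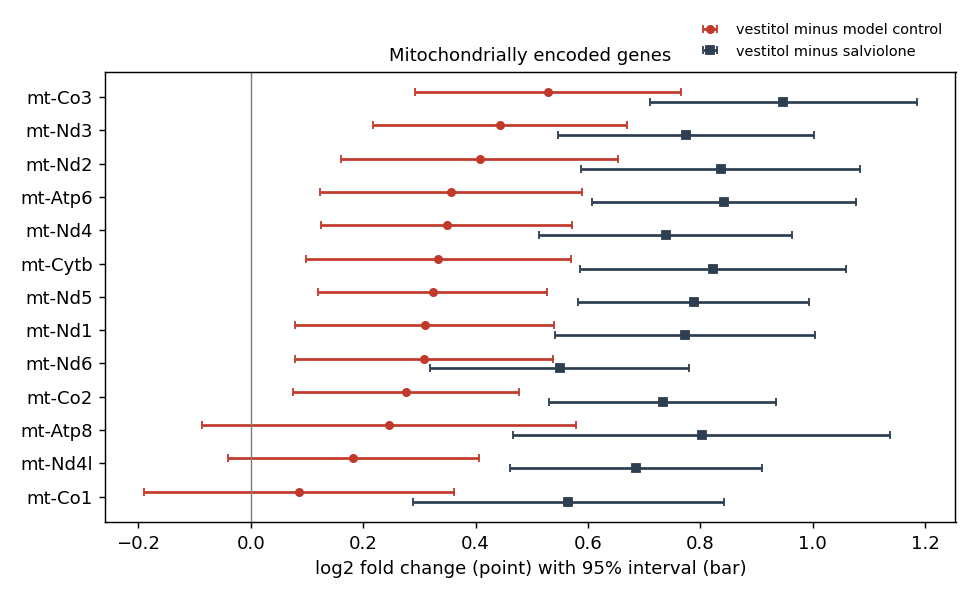
Log2 fold change (point) and 95% interval (bar) of the 13 mitochondrially encoded genes, for vestitol against the model control (red circles) and vestitol against salviolone (dark squares); the comparisons share the vestitol mice. All points lie right of 0; the interval reaches 0 or below in 3 genes against the model control and in none against salviolone.

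The nuclear genes of the respiratory chain had mostly negative values. Of 49 genes, 7 had an unadjusted p under 0.05 and were lower with vestitol (3.79% of all genes were), 1 was higher, and 39 of the 49 values were negative, with a median of -0.04. Ndufb10, a subunit of complex I, was at 80.6 ± 1.5 CPM in the controls and 72.7 ± 3.4 with vestitol (SD, n = 5), and Cox6b1, a subunit of complex IV, was at 140 and 128 CPM. Neither overlapped between the groups, and neither passed the adjusted test (adjusted p 0.448 and 0.513). The number lower was 4 without control mouse 1 or 2. The 16 genes of mitochondrial transcription and biogenesis had none at an unadjusted p under 0.05; Polrmt, the mitochondrial RNA polymerase, was at 30.7 and 33.4 CPM, and Tfb2m, its initiation factor, at 13.9 and 12.3 CPM.

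Circadian output genes had 11 positive and 4 negative values. Of these 15 genes, 5 had an unadjusted p under 0.05 and were higher with vestitol (3.77% of all genes were), namely Usp2, Cirbp, Tsc22d3, Dbp and Ciart, and the median was 0.12. Usp2, Tsc22d3 and Dbp are markers chosen for this comparison, and Usp2 and Cirbp are among its smallest-p genes. The count therefore does not stand apart from that choice. The 1 lower gene was Ppp1r3c, a regulator of glycogen synthesis, with a log2 difference of -0.31, and Nfil3, a repressor at D-boxes, had a value of -0.32 and an unadjusted p of 0.0681. Dbp (mm39, chromosome 7, 45354512 to 45359627), a transcription factor that binds D-boxes, was at 45.9, 45.5, 53.6, 66.3 and 61.3 CPM in the controls. Its vestitol values were 77.7, 92.8, 98.5, 77.2 and 54.6 CPM. Vestitol mouse 5 lay among the controls and the other 4 were above all of them, and the log2 difference of 0.56 ± 0.16 (SE) had an adjusted p of 0.404. Ciart, a repressor of CLOCK and BMAL1, was at 12.0 to 24.3 CPM and at 18.2 to 32.1 CPM, with overlap.

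The core clock list had 3 of 18 members higher and 1 lower at an unadjusted p under 0.05, beside 3.77% and 3.79% of all genes, with 5 negative values and a median of 0.04. Those higher were Per3, Nr1d1 and Nr1d2, repressors of the clock, and the lower one was Arntl, which encodes BMAL1. Per3 did not overlap, at 78.2 to 102.9 CPM in the controls and 103.0 to 111.0 CPM with vestitol. Nr1d1 was at 80.5, 101.1, 107.8, 113.0 and 108.3 CPM in the controls, and at 152.6, 152.5, 160.5, 102.8 and 103.6 CPM with vestitol. Thus vestitol mice 1 to 3 were above all controls and mice 4 and 5 were among them. Arntl was at 45.6 ± 4.9 CPM and 37.7 ± 3.7 (SD, n = 5). Only 1 core gene was higher at that threshold without control mouse 1 or vestitol mouse 3, and the hour at which each cortex was taken, which moves these genes, was not tested.

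The glucocorticoid-responsive list had 8 of 25 members higher and 0 lower at an unadjusted p under 0.05, beside 3.77% of all genes higher, and a median of 0.15. It includes a marker chosen for this comparison, Tsc22d3, so its count does not stand apart from that choice. Tsc22d3 (mm39, chromosome X, 139440277 to 139501408), a leucine zipper protein induced by glucocorticoids, was at 72.0, 75.7, 73.1, 75.3 and 61.6 CPM in the controls. With vestitol it was at 89.0, 94.9, 106.8, 87.5 and 108.5 CPM. The groups did not overlap, and the log2 difference was 0.44 ± 0.13 (SE) with an adjusted p of 0.379. Klf9, a transcription factor of the same response, was at 232 and 268 CPM, also without overlap. Sgk1, a kinase of the response, was at 62.0 to 106.7 CPM and at 82.8 to 194.4 CPM, Plin4, a lipid droplet protein, at 7.74 to 29.8 CPM and at 23.6 to 54.6 CPM, and Fkbp5, a co-chaperone of the receptor, at 40.7 to 53.7 CPM and at 49.9 to 61.8 CPM, all with overlap. Vestitol mouse 5 held the highest Sgk1 and Fkbp5 values: without it 3 of 25 members were higher (3.61% of all genes in that fit), with a median of 0.04. The number was 5 without control mouse 1 (3.71% of all genes), 4 without control mice 4 and 5 (3.09%) and 3 with the choroid plexus score as a covariate (2.91%).

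Promoters show which of these genes carry the letters that clock factors and the glucocorticoid receptor bind, in the 250 bases before the start of transcription (RefSeq, GRCm38.p6, whose coordinates differ from the mm39 ones above). The motifs searched on both strands were the E-box CACGTG, present in 6.02% of 32851 such windows, the D-box TTATGTAA, in 0.819%, and the glucocorticoid response element, half-sites GNACA and TGTNC with 3 bases between them, in 0.387%. A gene was counted when any of its windows held the motif. An E-box was found in 3 of 14 core clock genes, 4 of 14 output genes and 5 of 23 glucocorticoid-responsive genes with a window, and a response element in 5 of 23 of the last. The lists share members, Tsc22d3 among them, so 1 gene can stand in more than 1 of these counts. Genes with several windows have more chances. Windows of Usp2, Dbp, Tsc22d3, Nr1d1 and Cirbp held none of the 3 motifs. Among the other genes described, E-boxes also stood in windows of Ankrd12, Atp5l, Fkbp5, Hsph1, Calr, Ppp1r3c, Rps19 and Rasgrf2, and D-boxes in windows of Prnp and Prlr. The 4 windows below were picked with their matches known, to show repeated E-boxes, repeated D-boxes, the E-box of a gene with one of the smallest p and a response element beside an E-box, printed 5′ to 3′ on the gene's strand with the matches in capitals. Ciart (chr3:95882229-95882478, minus strand) has E-boxes starting 116, 58 and 44 bases before the start, Per3 (chr4:151044666-151044915, minus strand) has D-boxes at 205 and 158, Lfng (chr5:140607091-140607340, plus strand) has an E-box at 112, and 1 of the windows of Sgk1 (chr10:21993640-21993889, plus strand) has an E-box at 246 and a glucocorticoid response element at 188.
Ciart: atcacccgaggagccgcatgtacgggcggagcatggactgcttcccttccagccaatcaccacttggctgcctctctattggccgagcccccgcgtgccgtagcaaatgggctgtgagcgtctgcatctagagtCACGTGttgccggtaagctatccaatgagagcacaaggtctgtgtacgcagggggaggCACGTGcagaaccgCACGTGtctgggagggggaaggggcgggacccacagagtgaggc
Per3: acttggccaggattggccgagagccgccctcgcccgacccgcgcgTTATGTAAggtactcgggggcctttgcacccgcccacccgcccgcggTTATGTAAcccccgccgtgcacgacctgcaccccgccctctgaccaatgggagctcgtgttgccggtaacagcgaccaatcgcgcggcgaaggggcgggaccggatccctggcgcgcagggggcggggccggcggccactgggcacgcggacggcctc
Lfng: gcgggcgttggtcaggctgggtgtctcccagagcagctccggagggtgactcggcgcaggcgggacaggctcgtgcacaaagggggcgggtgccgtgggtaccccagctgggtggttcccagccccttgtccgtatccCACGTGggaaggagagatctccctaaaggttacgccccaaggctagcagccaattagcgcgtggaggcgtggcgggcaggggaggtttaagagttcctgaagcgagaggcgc
Sgk1: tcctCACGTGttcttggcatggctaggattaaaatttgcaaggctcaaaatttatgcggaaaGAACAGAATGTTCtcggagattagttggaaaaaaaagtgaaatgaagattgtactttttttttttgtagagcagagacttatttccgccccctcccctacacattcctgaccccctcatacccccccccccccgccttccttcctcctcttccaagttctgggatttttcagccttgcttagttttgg
A match is a description of these letters, and binding was not measured.

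**Figure D4:**
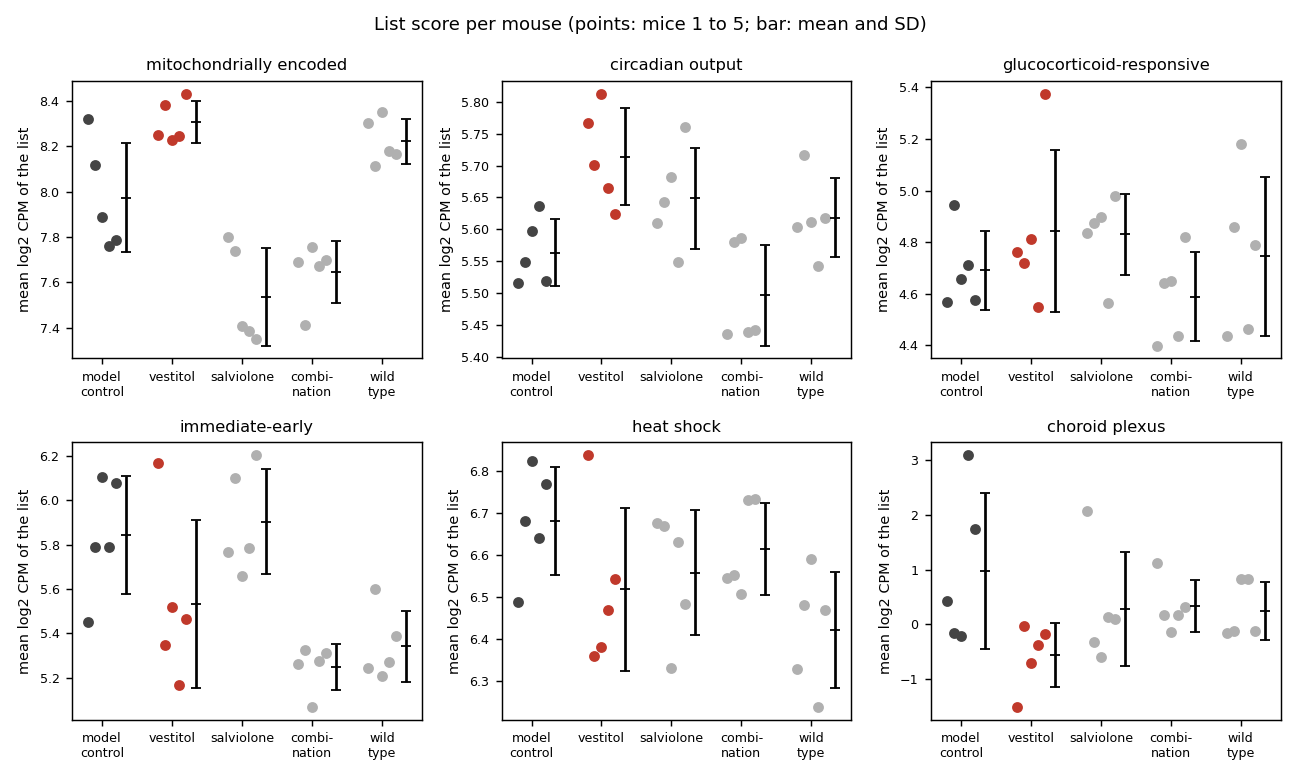
Mean log2 CPM of the tested members of 6 gene lists in each mouse of the 5 groups; points are mice 1 to 5 from left to right, the bar is the mean with its SD, and the vertical axes differ and do not start at 0. In the mitochondrially encoded panel the vestitol mice lie between 8.23 and 8.43 and the controls between 7.76 and 8.32; vestitol mouse 1 is the highest of its group in the immediate-early and heat shock panels, vestitol mouse 5 in the glucocorticoid panel, and control mice 4 and 5 are the highest controls in the choroid plexus panel.

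Genes induced by neuronal activity were lower on average with vestitol, and the groups overlapped. The immediate-early list score was 5.45 to 6.11 in the controls and 6.17, 5.35, 5.52, 5.17 and 5.46 in vestitol mice 1 to 5. All 24 immediate-early genes had negative values, with a median of -0.24, but only Jun and Bdnf had an unadjusted p under 0.05 (3.79% of all genes were lower). Arc, a synaptic scaffold protein made on activity, was at 294, 446, 637, 486 and 634 CPM in the controls and at 766, 247, 422, 197 and 310 CPM with vestitol. Vestitol mouse 1 was above every control, and mice 2 and 4 were below all of them. Fos, a transcription factor of the same response, had the same mouse at the top, at 87.9 CPM, with the other 4 at 21.7 to 47.7 CPM and the controls at 41.1 to 69.6 CPM. Without vestitol mouse 1, 16 of 24 members had an unadjusted p under 0.05 and were lower, beside 4.63% of all genes in that fit, with a median of -0.44; the number was 4 without control mouse 1, 1 without control mouse 3 or vestitol mouse 2 or 5, and 0 without control mouse 5 or vestitol mouse 3 or 4.

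Among the heat shock genes, vestitol mouse 1 again had the highest list score of its group. Of 22 members, 6 were lower at an unadjusted p under 0.05 (3.79% of all genes were), 0 were higher, and the median was -0.14. The chaperone Hspa8 was at 1605, 1955, 2022, 1878 and 1860 CPM in the controls and at 1797, 1450, 1289, 1572 and 1639 CPM with vestitol. The co-chaperone Stip1 had the smallest p of the list (adjusted p 0.3), at 202.8 ± 12.0 and 170.4 ± 14.2 CPM (SD, n = 5). Control mouse 1 had the lowest list score of the controls. Without vestitol mouse 1 the number lower was 12 of 22, beside 4.63% of all genes in that fit, with a median of -0.21. The list score of that mouse, 6.84, was above every control (6.49 to 6.82), so leaving it out moves the vestitol group down. Counts for this list without other mice are not given here.

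Lists of the amyloid response had few members at a small p. Beside the counts below, 3.77% of all genes were higher and 3.79% lower at an unadjusted p under 0.05. Of 28 plaque-associated microglia genes, 1 was at an unadjusted p under 0.05, the receptor Axl, which takes up dying cells, at 65.7 ± 4.8 CPM in the controls and 72.7 ± 3.2 with vestitol (SD, n = 5). The list median was 0.10, and Tyrobp, the signalling partner of TREM2, was at 25.4 ± 3.2 and 30.7 ± 4.9 CPM. Among 14 homeostatic microglia genes 3 were higher, Sall1, Mertk and Gpr34, and only Sall1, a transcription factor of microglia, did not overlap, at 32.8 to 36.1 CPM and 36.3 to 41.6 CPM. Of the 3, 1 was left without control mouse 5 (3.4% of all genes were higher in that fit), and 1 without control mice 4 and 5 (3.09%). Among 25 genes of amyloid processing and clearance, Itm2b, a membrane protein that binds the amyloid precursor protein, was the 1 member at that threshold, at 354 to 373 CPM in the controls and 319 to 342 CPM with vestitol, without overlap. None of 23 interferon response genes and 1 of 22 reactive astrocyte genes reached it. Of 17 complement genes, C4b was higher, at 148 ± 11 and 185 ± 34 CPM (SD, n = 5), and Cfb lower.

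Notch and splicing genes had few members beyond those already named. In the Notch list 3 of 32 were higher at an unadjusted p under 0.05 (3.77% of all genes were), Lfng, its relative Mfng and the receptor Notch4, with a list median of 0.03. The number was 5 without control mouse 3 (3.49% of all genes in that fit) and 1 without control mice 4 and 5 (3.09%). In the splicing list 4 of 30 were higher (3.77% of all genes were), Sf3b1, Srsf2, Rbm39 and Rbm25, with a median of 0.01, and 2 without control mice 4 and 5 (3.09%). Lfng and Sf3b1 are among the genes picked above for the smallest p. Srsf2, a serine and arginine rich splicing factor, did not overlap, at 65.9 to 70.8 CPM in the controls and 72.9 to 87.7 CPM with vestitol.

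The choroid plexus list had the lowest median of the 35 lists. Of 15 choroid plexus genes, 12 were lower with vestitol at an unadjusted p under 0.05 (3.79% of all genes were), with a median of -1.83, and none passed the adjusted test. Kl, the co-receptor klotho, was at 4.09, 2.28, 3.29, 15.7 and 8.20 CPM in the controls and at 1.77, 2.20, 2.35, 2.04 and 2.60 CPM with vestitol. Control mice 4 and 5 were far above the other 3, which were near the treated mice. Without control mouse 4 the number lower was 4 of 15 (3.78% of all genes in that fit), with a median of -1.03. Without control mice 4 and 5 it was 0 (3.76% of all genes), with a median of -0.43. Of 15 meningeal genes, 5 were lower (3.79% of all genes were), with a median of -0.65. Dcn, the collagen-binding proteoglycan decorin, did not overlap, at 3.98 to 11.7 CPM and 2.51 to 3.92 CPM. The meningeal number was 2 without control mouse 4 or vestitol mouse 1 or 5, 3 without control mouse 5 or vestitol mouse 2, and 1 without control mice 4 and 5. These fits had 3.49% to 4.63% of all genes lower.

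Lists of other cell types and regions had few members at a small p, where 3.77% of all genes were higher and 3.79% lower at an unadjusted p under 0.05. No member of the pan-neuronal, myelinating oligodendrocyte, mural cell, ependyma, blood cell, striatum or hippocampus lists had an unadjusted p under 0.05. Among 14 astrocyte genes 1 was higher, the growth factor receptor Fgfr3, at 93.0 to 108.3 CPM in the controls and 109.1 to 156.4 CPM with vestitol. Among 14 endothelial genes 2 were higher and 2 lower; Slc2a1, the glucose transporter of the blood-brain barrier, was at 106.7 ± 7.0 and 129.8 ± 13.4 CPM, and Cldn5, a tight junction protein, at 30.2 ± 3.7 and 23.4 ± 3.6 CPM (SD, n = 5). Of 14 thalamus genes 2 were lower, with a median of -0.46, and of 14 hypothalamus and basal forebrain genes 1 was lower, with a median of -0.69. The thalamus score was 4.51 and 5.19 in control mice 1 and 2 and 3.34 to 3.48 in the other controls. In the vestitol mice it was 3.29 to 4.27, with mouse 2 the highest.

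In 6 further lists 1 to 4 members each had an unadjusted p under 0.05, beside 3.77% of all genes higher and 3.79% lower. Of 11 genes of the glucocorticoid receptor machinery, 3 were lower and 1 higher at an unadjusted p under 0.05; Hsph1 and Hsp90ab1, chaperones that also stand in the heat shock list, were at 419 ± 36 and 357 ± 43 CPM, and at 2327 ± 56 and 2140 ± 219 CPM (SD, n = 5). Of 20 genes of the unfolded protein response 2 were lower, Dnajb11 and the calcium-binding chaperone Calr, and of 22 antioxidant genes 2 were lower and 1 higher. G6pdx, which makes NADPH for antioxidant enzymes, did not overlap, at 53.1 to 58.3 CPM in the controls and 47.9 to 49.6 CPM with vestitol. Of 20 estrogen receptor and response genes 2 were lower, Ccnd1, a cell cycle cyclin, at 61.6 ± 7.9 and 49.5 ± 7.1 CPM, and Prlr, the prolactin receptor, which is also in the choroid plexus list. Of 33 ribosomal protein genes 1 was lower, and of 13 cortical layer genes 1 was higher, Bcl11b, a factor of deep-layer projection neurons, at 117 ± 10 and 141 ± 20 CPM (SD, n = 5). Its highest vestitol value, 173.7 CPM, was in mouse 4, which also had the highest striatum score of that group, 6.616. Bcl11b averaged 167.5 CPM with the combination and 107.4 with salviolone, where the striatum score averaged 6.726 and 5.655. A link of Bcl11b to the tissue taken was not tested.

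The salviolone and combination groups were compared with the same 5 control mice, so their differences are given only as values beside those of vestitol. For Usp2 the log2 difference from the model control was 0.34 with vestitol, 0.28 with salviolone and 0.00 with both at 2.5 mg/kg each. For Lfng these values were 0.41, 0.36 and 0.22, and for mt-Co3 they were 0.53, -0.42 and -0.43. The dose of vestitol in the combination was lower, so that value is not at a matched dose. In that same test, of 16515 genes, 4 were called for salviolone and 2471 for the combination. The combination and control mice also differed in regional marker scores (mean log2 CPM). The hypothalamus and basal forebrain score averaged 3.357 with the combination and 0.417 in the controls. Striatum averaged 6.726 and 6.025, and cortical layers 6.112 and 6.441. How many of the 2471 genes go with the tissue taken was not tested.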

How the data were processed

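Cortex RNA of 25 mice was sequenced. Adapters were trimmed with Trim Galore and reads aligned with STAR to mm39, per the submitters' processing notes; versions, counting tool and strand setting do not appear in the sources used here. For the libraries, the labels name a TruSeq and a SMARTER kit. The authors deposited raw counts per gene and FPKM for 21720 genes. Of counts from 4 to 39, 44.3% were multiples of 4 (25% by chance), so the fit was repeated on counts divided by 4. That fit had 4.27% of 15091 genes higher with vestitol than in the model control and 3.88% lower at an unadjusted p under 0.05. Total counts were 59376320 to 109776852.

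All 25 samples were fitted together, each group with its own coefficient, by edgeR 4.0.16 under R 4.3.3 (filterByExpr, minimum count 10, 16515 genes; TMM factors 0.980 to 1.04), with two-sided robust quasi-likelihood tests adjusted by Benjamini-Hochberg over all genes. A standard error is the log2 fold change divided by the square root of F. List scores are mean log2 CPM with a prior count of 2. The scripts were tested on simulated data.

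Named genes were the 12 per direction with the smallest p among genes whose mean log2 CPM was 1 or more, the 5 markers Usp2, Lfng, Tsc22d3, Dbp and mt-Co3, App and Prnp, and up to 3 members of each of the 35 lists by smallest p; any further member was picked with its values in view. The members and lists were chosen with earlier results of these data known. Some genes under this rule are not reported here. Alternatives were other size factors, filters, DESeq2 1.42.0, limma 3.58.1 (voom, or log2 of the deposited FPKM plus 0.1 or 1), only 2 groups, covariates, a replicate block, a 1.2-fold minimum and leaving out mice.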

Additional observations from a re-analysis of the deposited data

Results flagged for a closer look

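Of 316 values tested (named genes and list scores in the 5 mice of a group), 29 had 1 mouse far from the other 4 by Dixon's ratio, where chance flags about 1 in 20. In control mouse 1, Dnah5 was high at 10.1 CPM, Hap1, a neuronal transport protein, was high at 119 CPM, the hypothalamus and basal forebrain score was high at 1.86 and the circadian clock core score was low at 6.16 (scores in mean log2 CPM). In control mouse 2, Rps19 was low at 76.0 CPM, Rasgrf2 was low at 208 CPM and the mural cell score was high at 4.04. Control mouse 3 had a low myelinating oligodendrocyte score of 6.03. Control mouse 4 stood out high in Ankrd12 at 191 CPM and in the coagulation factor F5, a choroid plexus marker here, at 11.1 CPM. Control mouse 5 was low in Tsc22d3 at 61.6 CPM and in the striatum score at 5.62.

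Vestitol mouse 1 had the most such values, 7. It was high in the chaperone Hsph1 at 432 CPM, in Jun at 45.1 CPM, in the activity-induced factor Nr4a2 at 66.4 CPM and in the pan-neuronal score at 8.75. The same mouse was low in Apoe at 618 CPM, in Slc6a13 at 4.17 CPM and in the hypothalamus and basal forebrain score at -0.75. Vestitol mouse 2 had a high thalamus score of 4.27. Vestitol mouse 3 was high in Slc4a1 at 0.123 CPM and Oxt at 0.215 CPM, both near the limit of detection. Vestitol mouse 4 was low in Alkbh1 at 13 CPM and high in Dnah5 at 6.90 CPM and Gpr6 at 20.5 CPM. Vestitol mouse 5 was high in S100a9, a neutrophil gene, at 4.43 CPM, in the glucocorticoid receptor machinery score at 6.63 and in the astrocyte score at 7.94, and low in the Notch pathway score at 4.19.

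The effects of vestitol and salviolone against their shared control differed by the test of vestitol against salviolone in 12 named genes (edgeR, adjusted p under 0.05). Over all genes 0.684% were called. Most of the 12 had been named for a small p against the control in the same vestitol mice. Their number is therefore not a separate result. Values, as log2 differences of vestitol minus salviolone, were 0.95 for mt-Co3, 0.84 for mt-Nd2, 0.77 for mt-Nd3, 0.55 for Abcg2, 0.42 for Ube3a, 0.34 for Rnf103, 0.32 for Rbm39, 0.24 for Ankrd12, 0.20 for Sf3b1, 0.18 for Pabpc1, -0.18 for Uqcrh and -0.39 for Slc24a3.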

How the results depend on the processing

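Between vestitol and the model control edgeR called 0 genes, DESeq2 39, and leaving out single mice gave 0 to 2; the cause was not tested. With a 1.2-fold minimum, 115 genes were higher and 164 lower at an unadjusted p under 0.05, where 623 and 626 were, since that test asks for a larger change. For vestitol against salviolone the 113 calls became 275 with DESeq2, 41 with only the 2 groups, 59 with the choroid plexus score as a covariate, 9 with a 1.2-fold minimum, and 14 to 204 without single mice. Replicate numbers are shared between groups in the labels; deviations of same-numbered vestitol and control mice correlated at -0.0357, 0.0237, 0.0607, -0.0266 and 0.107, so the numbers were not taken to pair mice, and 2 of 5 vestitol mice correlated best with their own number. A fit with the replicate block called 0 genes between vestitol and control, with 652 higher and 624 lower at an unadjusted p under 0.05, and 150 between vestitol and salviolone. Of 123 named genes, 119 had 1 sign in all settings. The others were App, at 0.01 without control mice 4 and 5 (0.0107), Tmem72, at 0.0942 with the choroid plexus covariate, S100a9, at -1.54 with limma-voom, -0.0131 on log2 FPKM plus 0.1 without a filter and -1.84 to 2.20 without single mice, and Gpr6, at -0.00962 to 0.261 without single mice; none of these 4 passed the adjusted test in the main fit. Of 909 list medians over settings, 14 moved by more than the spread between mice. With 5 mice a group and a median standard error of 0.117, small changes could not be told from the spread between mice. Values under the limit of 3 counts, which takes each count as 1 read, were not detectable at this depth.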
